A study of Mus musculus with 8 samples.

Results

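Zfp600, Zfp992, Zfp981, Zfp988, Zfp982, Zfp985 and Zfp979 are 7 of 14 zinc finger genes in an interval of mouse chromosome 4. They do not all lie side by side. They were followed in preimplantation embryos with and without knockdown of Smarca5, an ATPase of the ISWI chromatin remodelers, also called Snf2h. They were taken by symbol from the rows of both expression tables, where each has 1 Ensembl ID, and they lie on mm10 in an interval bounded by Zfp987 and Zfp534, which reach over its edges and are counted in it. They make up 7 of 19485 genes listed for morulae and 7 of 20348 listed for blastocysts. The genes were picked with their knockdown and control values in view, so their own differences are given as a description with no test.

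The groups were Snf2h KD morulae, NC morulae, Snf2h KD blastocysts and NC blastocysts, each with 2 libraries of polyadenylated RNA from pools of 20 mouse embryos. A morula is the compacted ball of cells before a cavity forms, and a blastocyst has an outer trophectoderm, an inner cell mass and a fluid-filled cavity. How the knockdown was made, what NC stands for, the strain, and the embryonic day of each stage could not be read from the labels. The values are a normalized abundance per gene, scaled by the authors within each table, with column sums between 17151880 and 19247880. The spacing of low values gave estimated depths of 13958296 to 23304923 reads. Smarca5, checked first, stood at 501 and 470 in KD morulae against 9678 and 9760 in NC morulae, and at 906 and 855 in KD blastocysts against 7000 and 8283 in NC blastocysts. It fell at both stages (limma adjusted p = 1.88e-04 and 5.93e-04). Without the mean-variance trend in limma these were 0.111 and 0.103, with the same log2 differences.

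The genes belong to the KRAB zinc finger family, whose proteins carry a row of C2H2 zinc fingers that read DNA and a KRAB domain that binds the corepressor TRIM28. TRIM28 brings the histone H3 lysine 9 methyltransferase SETDB1 and other repressors, and in early embryos and embryonic stem cells the best known targets of this system are endogenous retroviruses. In mouse, many of these genes lie in large tandem clusters of close copies, one of which is on distal chromosome 4. Zfp982 has been reported to regulate pluripotency genes in mouse embryonic stem cells. The targets of the other members are not described here.

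Sequence upstream of the start sites is shown because the genes resemble each other there as well as in aligned coding sequence. RefSeq promoters (GRCm38.p6, 250 bases before to 50 bases after a start site) were at hand for 6 of the 7 genes, all but Zfp992. For each, the 120 bases below are given 5′ to 3′ on the gene's own strand. Capitals mark the longest string that all 6 promoters share and, further along, a CCAAT box in reverse running into a GC box. The Zfp981 promoter belongs to a start site inside the annotated span of the gene (146502027 to 146539395), not to its outermost start.
Zfp600, chr4:146156662-146156781, plus strand: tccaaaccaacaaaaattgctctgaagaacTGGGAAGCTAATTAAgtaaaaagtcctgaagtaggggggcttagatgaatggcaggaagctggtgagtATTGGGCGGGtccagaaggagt
Zfp981, chr4:146514726-146514845, plus strand: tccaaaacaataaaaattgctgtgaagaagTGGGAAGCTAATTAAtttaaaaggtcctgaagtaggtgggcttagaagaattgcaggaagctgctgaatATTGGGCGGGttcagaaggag
Zfp988, chr4:147305460-147305579, plus strand: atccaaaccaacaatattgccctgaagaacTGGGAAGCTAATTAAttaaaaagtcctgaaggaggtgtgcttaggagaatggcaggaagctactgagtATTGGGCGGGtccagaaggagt
Zfp982, chr4:147492236-147492355, plus strand: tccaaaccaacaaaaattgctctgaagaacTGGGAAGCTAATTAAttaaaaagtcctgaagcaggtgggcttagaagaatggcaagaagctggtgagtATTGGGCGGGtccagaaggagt
Zfp985, chr4:147553111-147553230, plus strand: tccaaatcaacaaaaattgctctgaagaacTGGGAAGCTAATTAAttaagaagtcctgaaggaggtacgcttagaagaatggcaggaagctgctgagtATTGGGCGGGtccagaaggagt
Zfp979, chr4:147642560-147642679, minus strand: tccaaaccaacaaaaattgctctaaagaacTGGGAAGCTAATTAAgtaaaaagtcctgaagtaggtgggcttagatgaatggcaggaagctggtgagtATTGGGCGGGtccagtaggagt

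Over the full 300 bases, pairs of these 6 promoters had 85.6% to 98.3% identical bases among aligned bases, with a median of 90.5% over 15 pairs. The closest pair was Zfp600 and Zfp979, which stand near opposite ends of the cluster and on opposite strands. The shared string of 15 bases, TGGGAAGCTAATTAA, was searched on both strands in 32851 RefSeq promoters and was found in 12, which is 0.0365%. All 12 belong to genes of this part of chromosome 4, namely the 6 members, Zfp987, Rex2 and Zfp534 of the same interval, and Gm13212, Zfp980 and Zfp984 just outside it. The combined CCAAT and GC box, ATTGGGCGGG, was present in all 6 member promoters and in 39 of the 32851, or 0.119%. Its parts are common, and partly overlap in these promoters: GGGCGG alone was found in 35.7% of promoters and CCAAT alone in 37.4%. These matches describe letters only.

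The genes are protein-coding in GENCODE vM21. Zfp600 (ENSMUSG00000066007, 146156824 to 146198755), Zfp992 (ENSMUSG00000070605, 146449023 to 146470292), Zfp981 (ENSMUSG00000056300, 146502027 to 146539395), Zfp988 (ENSMUSG00000078498, 147305674 to 147333734), Zfp982 (ENSMUSG00000078496, 147492417 to 147513486) and Zfp985 (ENSMUSG00000065999, 147553277 to 147585198) are on the plus strand. Zfp979 (ENSMUSG00000066000, 147611937 to 147642513) is on the minus strand. Scanning the translated longest coding sequence for the C2H2 motif gave 17 fingers in Zfp600, 14 in Zfp988, 11 in Zfp992, 10 in Zfp985, 7 each in Zfp981 and Zfp982 and 3 in Zfp979. Coding sequences of the 21 pairs had 78.7% to 94.5% identical bases among aligned bases, with a median of 85.7%. Zfp600 and Zfp981 were the closest pair by this measure, which leaves out gaps. Counted over the longer coding sequence of each pair, identity was 43.8% to 82.6%. By that count Zfp600 and Zfp981 had 56.3%, and Zfp992 and Zfp988 were closest (82.6%).

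**Figure D1:**
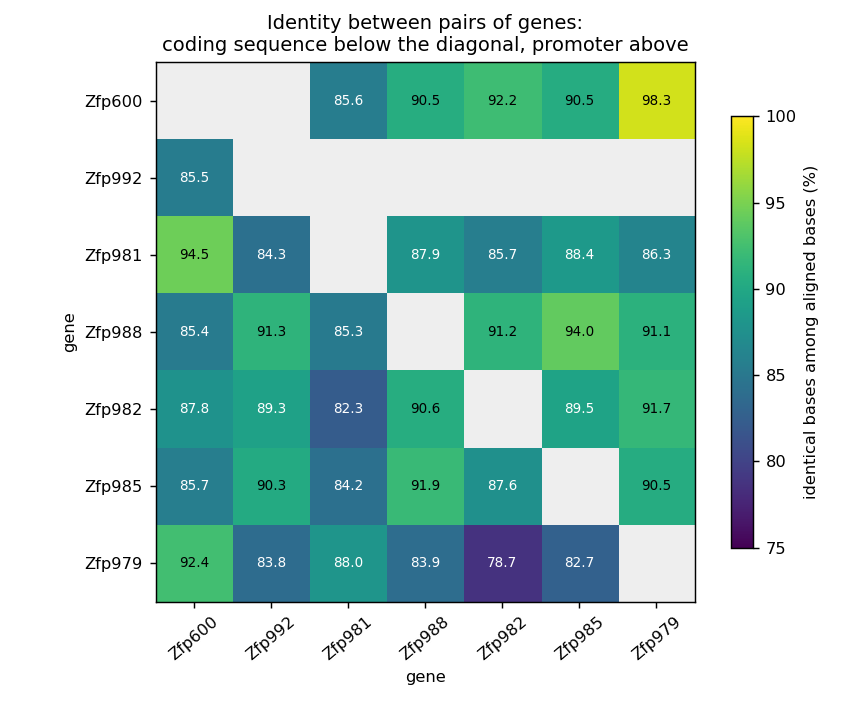
Identity between pairs of the 7 genes, as the percentage of identical bases among aligned bases. Cells below the diagonal compare coding sequences and cells above it compare 300-base promoters, with grey where Zfp992 has no promoter entry; promoter identity of Zfp600 and Zfp979 was 98.3%, and coding identity of Zfp600 and Zfp981 was 94.5%.

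Likeness of the transcripts limits how well reads can be given to a single copy. Of the 31-base words in all annotated transcripts of a gene, the share also found in transcripts of another gene was 87.3% for Zfp600, 79.5% for Zfp988, 59.9% for Zfp981 and 48.3% for Zfp992. It was lower for Zfp985 (39.4%), Zfp979 (31.5%) and Zfp982 (29.7%). Zfp600 shared most with Rex2 (76.5% of its words), Zfp988 with Zfp987 (65.9%) and Zfp992 with Zfp991 (41.7%), which are neighbours and not members. Between pairs of members the share ran from 0.957% (words of Zfp992 found in Zfp981) to 43.4% (words of Zfp981 found in Zfp600). Values of Zfp600 and Zfp988 are therefore the least certain of the 7, and the sum over the copies is given as well. No source used here states whether counting used strand, so RNA from the antisense non-coding genes annotated across Zfp600, Zfp992, Zfp981 and Zfp988 could not be told apart from that of the genes.

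The 7 genes were lower in KD than in NC embryos at both stages, each with both KD libraries below both NC libraries. KD means were 53.3% to 67.3% of NC means in morulae and 33.7% to 67.1% in blastocysts. The median difference on the log2(value + 1) scale was -0.79 in morulae and -1.0 in blastocysts, against -0.01 and 0.00 over all genes tested, of which limma called 0.00746% in morulae and 0.0879% in blastocysts. KD lay below NC without overlap for 21.2% of the 13404 genes tested in morulae and 24.9% of the 13651 tested in blastocysts, and at both stages for 9.54% of the 12875 tested in both. KD lay above NC without overlap for 20.7% in morulae and 24.6% in blastocysts. Since the genes were picked on this contrast, the 7 of 7 is read only as a description. In RNA of whole pools, fewer cells that express a gene and less RNA per cell cannot be told apart.

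**Figure D2:**
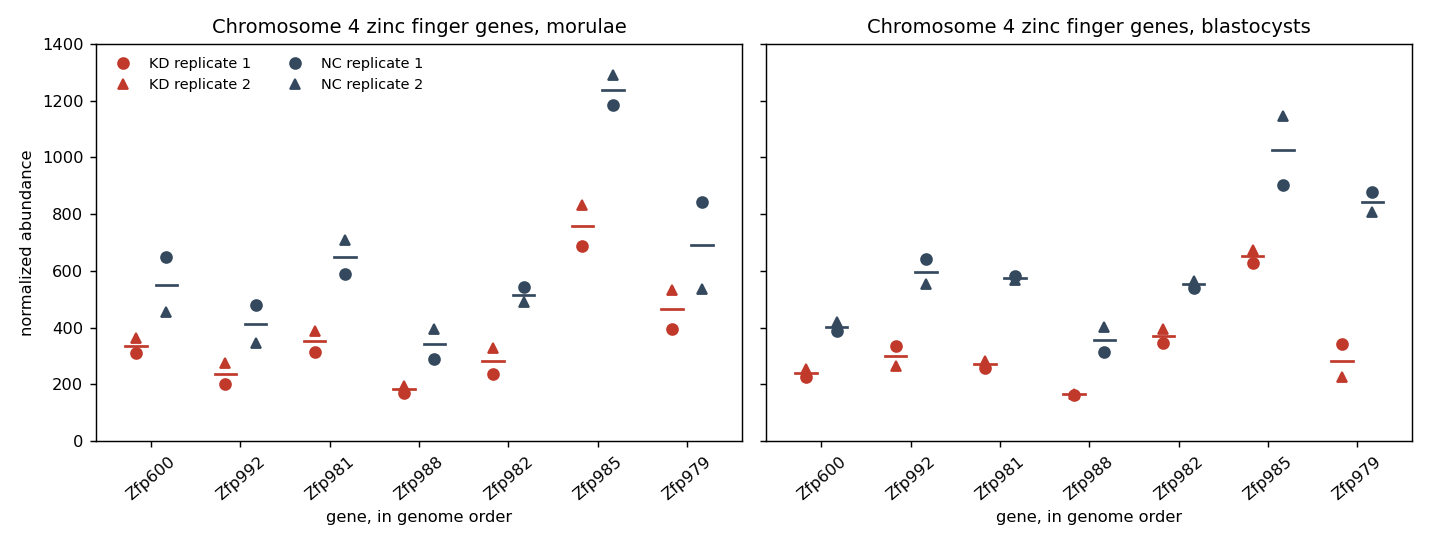
Normalized abundance of the 7 genes in each library, KD (red) left of NC (blue), with circles for replicate 1, triangles for replicate 2 and a bar at the mean of 2 libraries. No KD point reaches an NC point of the same gene and stage, and the narrowest gap is that of Zfp979 in morulae, at 535 against 537.

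Zfp985 and Zfp982, the 2 genes with the highest levels per length, are given first. Zfp985 stood at 688 and 832 in KD morulae against 1184 and 1289 in NC morulae, and at 629 and 674 in KD blastocysts against 904 and 1147 in NC blastocysts. Both stages showed the KD libraries clear of the NC libraries, with log2 differences of -0.71 and -0.64. Zfp982 stood at 237 and 328 in KD morulae against 542 and 489 in NC morulae, and at 347 and 395 in KD blastocysts against 542 and 565 in NC blastocysts. Its log2 difference was -0.89 in morulae and -0.58 in blastocysts, the smallest of the 7 at the later stage. Neither gene's groups overlapped at either stage.

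Zfp979, the gene on the opposite strand, had the widest range of log2 differences between the stages. In morulae it stood at 395 and 535 in KD against 843 and 537 in NC, so KD replicate 2 and NC replicate 2 nearly met (log2 difference -0.55). The difference was -0.23 without NC replicate 1, -0.33 without KD replicate 1 and -0.87 without NC replicate 2. In blastocysts the groups were far apart, at 341 and 227 in KD against 878 and 807 in NC, or 284 ± 81.1 against 843 ± 50.6 (SD, n = 2). The log2 difference of -1.59 there was the largest among the 7, and KD was 33.7% of NC.

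Zfp981 stood at 315 and 389 in KD morulae against 590 and 710 in NC morulae, a log2 difference of -0.89. In blastocysts it was 270 ± 17.1 in KD and 575 ± 10.4 in NC (SD, n = 2), a log2 difference of -1.09. The spread within each blastocyst group was small beside the gap between them. Zfp988 stood at 169 and 195 in KD morulae against 289 and 396 in NC morulae, and 165 and 167 in KD blastocysts against 314 and 403 in NC blastocysts. The log2 differences were -0.89 and -1.09, close to those of Zfp981 at both stages.

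Zfp992 stood at 203 and 274 in KD morulae against 481 and 345 in NC morulae, and at 334 and 265 in KD blastocysts against 643 and 553 in NC blastocysts. KD was 57.8% of NC in morulae and 50.1% in blastocysts. Zfp600 stood at 309 and 365 in KD morulae against 650 and 454 in NC morulae, and at 228 and 255 in KD blastocysts against 388 and 420 in NC blastocysts. Its log2 difference was -0.69 and -0.74. Without NC replicate 1 the morula difference of Zfp600 was -0.43.

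The libraries of a group did not order the genes in one way. KD replicate 1 was below KD replicate 2 for all 7 genes in morulae and for 5 of 7 in blastocysts. NC replicate 1 was above NC replicate 2 in morulae for Zfp600, Zfp992, Zfp982 and Zfp979 and below it for Zfp981, Zfp988 and Zfp985. Over the 8 libraries, after centring each table, the correlation between pairs of members was 0.73 to 0.98 with a median of 0.89 over 21 pairs. The 8 points share the step between KD and NC on which the genes were picked, and the genes share transcript words.

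Summed over the 7 genes, abundance was 2316 and 2917 in KD morulae against 4579 and 4221 in NC morulae, and 2302 and 2265 in KD blastocysts against 4251 and 4462 in NC blastocysts. The sums do not depend on how reads were divided among the 7. They still depend on reads shared with other genes, as Zfp600 shares 76.5% of its words with Rex2. Adding the 7 other zinc finger genes of the interval gave 3810 ± 664 in KD and 6158 ± 649 in NC morulae, and 3444 ± 238 in KD and 6628 ± 504 in NC blastocysts (SD, n = 2). KD was 61.9% of NC in morulae and 52.0% in blastocysts over these 14 genes. Zfp987, which is among the 14, shares 78.7% of its words with Gm8935, which is not.

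Levels were compared between genes per kilobase of annotated exon. In KD morulae the order was Zfp985 (265 per kb), Zfp982 (190), Zfp979 (113), Zfp981 (111), Zfp600 (68.3), Zfp988 (65.1) and Zfp992 (52.4). Libraries of neighbours overlapped for Zfp979 and Zfp981 and for Zfp600 and Zfp988. In NC morulae Zfp985 (431 per kb) and Zfp982 (347) again stood first and apart, followed by Zfp981 (205), Zfp979 (168), Zfp988 (122), Zfp600 (112) and Zfp992 (90.8), where each gene from Zfp981 on overlapped the next. In KD blastocysts Zfp982 (250 per kb) and Zfp985 (227) overlapped and led, well above Zfp981 (85.5), Zfp979 (69.1), Zfp992 (65.8), Zfp988 (59.3) and Zfp600 (48.9). Among these lower genes, each from Zfp981 to Zfp992 overlapped the next. In NC blastocysts Zfp982 (372 per kb) and Zfp985 (357) also overlapped, and Zfp979 (205), Zfp981 (182), Zfp992 (131), Zfp988 (128) and Zfp600 (81.8) came after. Of these, Zfp992 and Zfp988 overlapped. The pair Zfp985 and Zfp982 was therefore highest per length in all 4 groups, provided the values were not already scaled for length. The place of Zfp982 rests on its short annotated exons (1488 bases, the shortest of the 7). Before division its mean in KD morulae, 282, was below those of Zfp979 (465), Zfp981 (352) and Zfp600 (337). The tables were scaled separately, so levels of the 2 stages are only set side by side.

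The interval holds 7 other zinc finger genes, counting those that reach over its edge: Zfp987, Zfp993, Zfp989, Rex2, Zfp991, Zfp978 and Zfp534. They were not among the picked genes, but they share reads with them, so they are not independent of them. In morulae all 7 were lower in KD, 4 of them without overlap (57.1%, beside 21.2% of all genes), with a median log2 difference of -0.49. None passed limma over all genes (adjusted p 0.42 to 0.829), and 1, Zfp978, had an unadjusted p under 0.05. In blastocysts all 7 were lower without overlap (beside 24.9% of all genes), with a median of -1.01. None passed there either (adjusted p 0.124 to 0.244), and all 7 had an unadjusted p under 0.05. Over all genes, an unadjusted p under 0.05 was found for 700 lower and 691 higher of 13404 in morulae and for 1192 lower and 1206 higher of 13651 in blastocysts. The morula median was -0.20 without KD replicate 1, -0.26 without NC replicate 1, -0.75 without KD replicate 2 and -0.84 without NC replicate 2.

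Zfp978 stood at 192 and 141 in KD morulae against 391 and 257 in NC morulae, and at 175 and 101 in KD blastocysts against 285 and 330 in NC blastocysts. Its log2 difference was -0.95 and -1.20 (adjusted p = 0.42 and 0.142). Zfp989 overlapped in morulae, at 57.0 and 145 in KD against 164 and 92.6 in NC, and stood at 62.2 and 74.2 in KD against 145 and 204 in NC blastocysts. Rex2, whose promoter holds the shared string, was 282 and 400 in KD against 556 and 402 in NC morulae, and 331 and 202 in KD against 551 and 543 in NC blastocysts (adjusted p = 0.584 and 0.124). Zfp987, Zfp993, Zfp991 and Zfp534 had log2 differences of -0.21, -0.70, -0.88 and -0.39 in morulae and of -0.83, -1.01, -0.88 and -0.80 in blastocysts. The change was tested between the stages for these genes in a fit of all 8 libraries, and none passed (limma adjusted p 0.929 to 0.999), which does not show that the stages were alike.

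Genes of this stretch of chromosome 4 did not all stand lower. Gm13212, an annotated protein-coding gene with finger motifs whose promoter holds the 15-base string, was 874 and 993 in KD morulae against 985 and 893 in NC morulae, and 706 and 610 in KD blastocysts against 535 and 763 in NC blastocysts. The groups overlapped at both stages. Gm13147, a transcribed pseudogene inside the interval that shares 47.8% of its words with Gm13212, was 1327 and 1265 in KD against 1248 and 1272 in NC morulae, and overlapped in blastocysts too (log2 differences 0.04 and -0.11). Both were singled out after their values were seen. Zfp984, just past the distal edge and with the string, was 670 and 728 in KD against 820 and 752 in NC morulae (log2 difference -0.17, adjusted p = 0.773) and 646 and 509 in KD against 673 and 715 in NC blastocysts (-0.27, adjusted p = 0.441). Its KD libraries thus lay below its NC libraries at both stages, by a small difference that did not pass.

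On the proximal side, where Gm13212 also lies, the other zinc finger genes were lower in KD blastocysts without overlap, and none passed the test. Zfp980 was 532 and 702 in KD against 992 and 865 in NC morulae, and 498 and 455 in KD against 861 and 999 in NC blastocysts (log2 differences -0.60 and -0.96, adjusted p = 0.426 and 0.0747). Zfp990 was 176 and 236 in KD against 426 and 355 in NC morulae, and 318 and 319 in KD against 592 and 561 in NC blastocysts (-0.93 and -0.85, adjusted p = 0.377 and 0.0958). Zfp986 had -0.12 in morulae, where the groups overlapped, and -0.83 in blastocysts. On the distal side Zfp933 overlapped at both stages, as did Miip, the first tested gene beyond it, whose product inhibits cell migration (log2 differences -0.07 and -0.05). Of the protein-coding genes with no finger motif from 1.1 Mb before the interval to 0.6 Mb after it, 18 were tested in morulae and 17 in blastocysts, with medians of -0.03 and -0.01. KD lay below NC without overlap for 1 of them in morulae and for 4 in blastocysts, or 5.56% and 23.5%, beside 21.2% and 24.9% over all genes. The gene in morulae was Gm21411, the one tested protein-coding gene with no finger motif inside the interval, at 28.0 and 56.4 in KD against 83.7 and 86.3 in NC (log2 difference -1.07, adjusted p = 0.501). In blastocysts it was 41.4 and 28.6 in KD against 57.0 and 60.5 in NC (-0.75, adjusted p = 0.398), and the other genes were Tnfrsf1b (-1.17), Fbxo6 (-0.31) and 2510039O18Rik (-0.08). Gm21411 shares 57.9% of its words with Zfp989. These 4 genes were likewise named after their values were seen. Outside the interval the mitochondrial fusion gene Mfn2 and the lysyl hydroxylase gene Plod1, named after their values were seen, had log2 differences of -0.05 and 0.16 in morulae and of 0.13 and 0.50 in blastocysts.

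**Figure D3:**
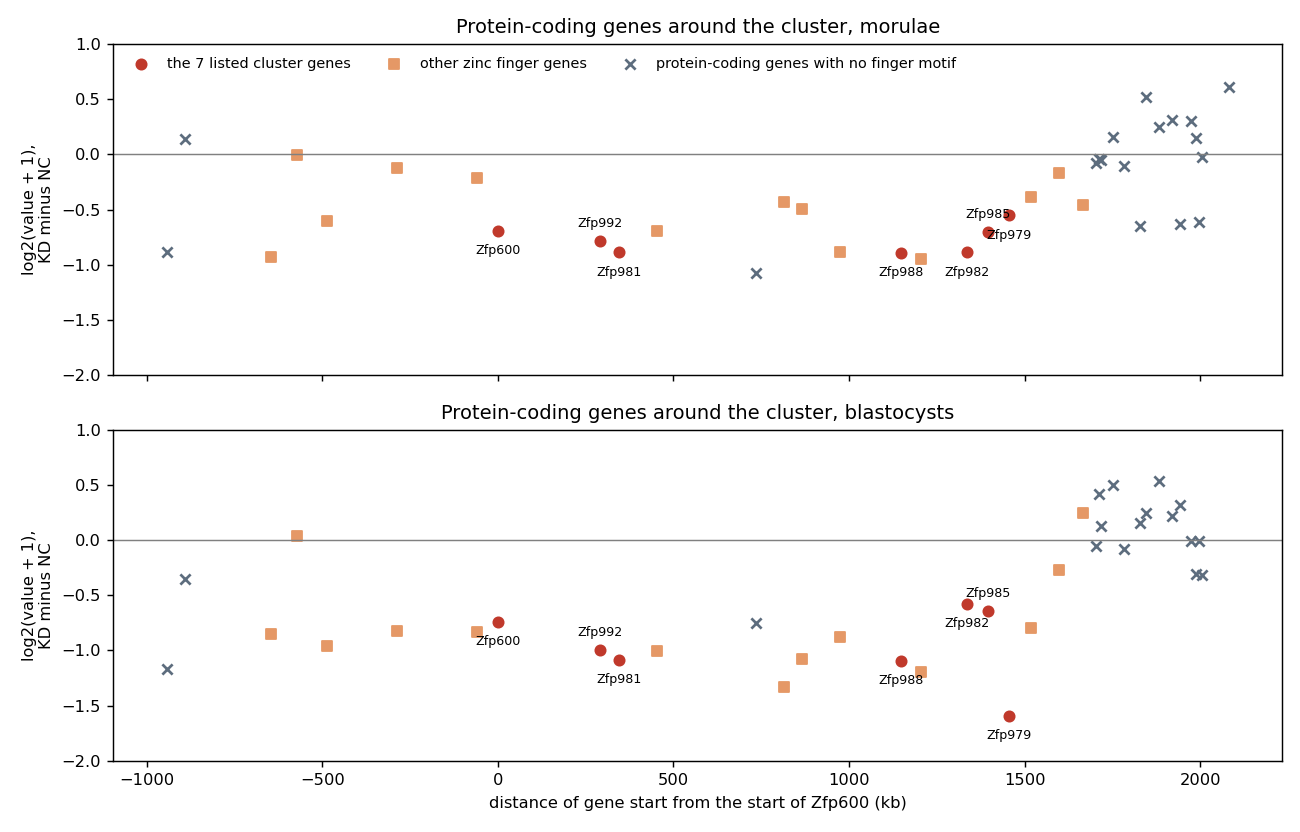
Log2(value + 1) difference, KD minus NC, of tested protein-coding genes by distance in kb of the gene start from the start of Zfp600, with morulae above and blastocysts below. Red circles are the 7 listed genes, orange squares other zinc finger genes and grey crosses genes with no finger motif; the genes past the distal edge, from Miip on, lie on both sides of 0.

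Zinc finger genes outside the interval gave the wider setting. Of the other genes named Zfp with a number, 330 were tested in morulae and 341 in blastocysts, with median log2 differences of -0.13 and -0.10. They include Zfp990, Zfp980, Zfp986, Zfp984 and Zfp933, which lie beside the interval on chromosome 4. KD lay below NC without overlap for 95 in morulae (28.8%) and for 100 in blastocysts (29.3%), beside 21.2% and 24.9% over all genes. KD lay above NC without overlap for 52 of 330 and 58 of 341, beside 20.7% and 24.6% over all genes. None of these Zfp genes passed limma over all genes (lowest adjusted p = 0.305 and 0.0593). At an unadjusted p under 0.05, 32 were lower and 9 higher in morulae and 35 were lower and 12 higher in blastocysts, beside 700 lower and 691 higher over all genes in morulae and 1192 and 1206 in blastocysts. Over all genes, 6803 of 13404 had a log2 difference below 0 in morulae and 6789 of 13651 in blastocysts. Among genes of any name outside the interval with at least 5 finger motifs, 243 of 407 did in morulae and 241 of 420 in blastocysts. Their medians were -0.08 at both stages. Whether the cluster differs from these genes was not tested, since its members were picked on the same contrast.

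**Figure D4:**
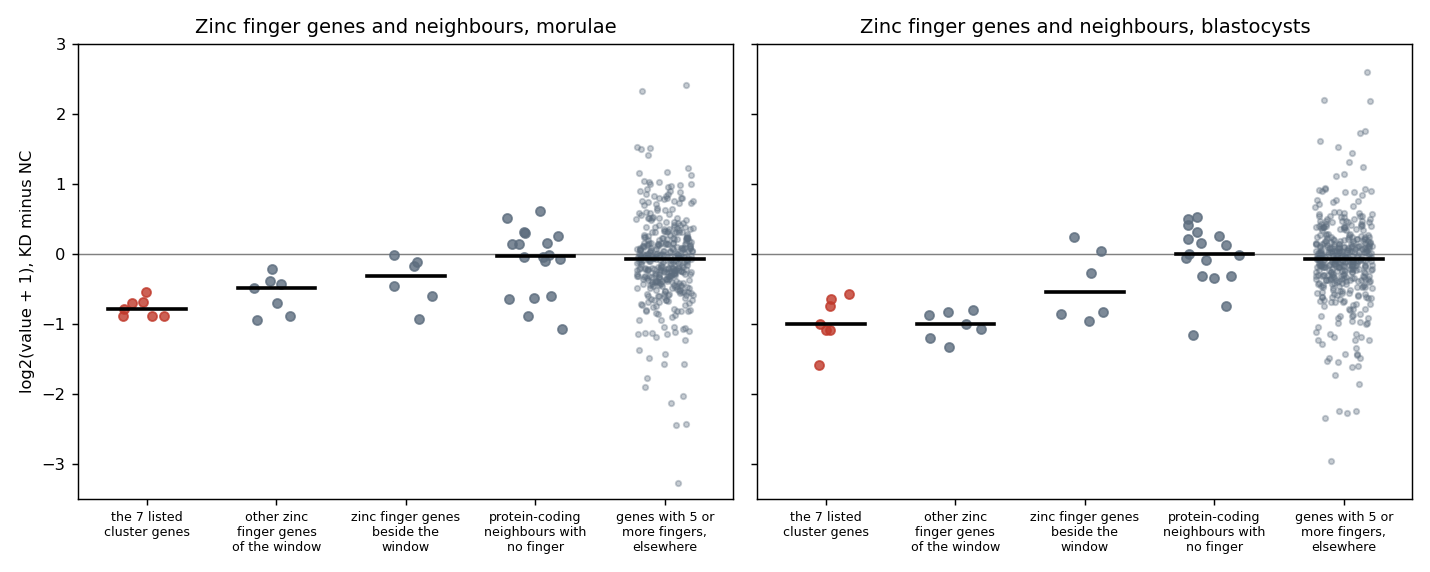
Log2(value + 1) difference, KD minus NC, of single genes in 5 classes, with a black bar at the median. Medians of the 7 listed genes are -0.79 in morulae and -1.0 in blastocysts, those of neighbours with no finger are -0.03 and -0.01, and genes with 5 or more fingers elsewhere spread on both sides of 0.

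Some Zfp genes outside the cluster had larger differences than any member at the same stage. Zfp850 was 40.1 and 40.3 in KD against 184 and 213 in NC blastocysts (log2 difference -2.27, adjusted p = 0.0593) and -1.13 in morulae. Zfp72 was 9.15 and 9.95 in KD against 100.2 and 101 in NC morulae (-3.27, adjusted p = 0.305), and Zfp459 was 22.9 and 17.1 in KD against 77.4 and 72.1 in NC morulae (-1.86). Zfp667 was also lower in morulae (-1.57). The opposite direction was seen for Zfp607b, at 138 and 138 in KD against 20.8 and 23.3 in NC blastocysts (2.60, adjusted p = 0.0597), and for Zfp280c (0.90) and Zfp950 (0.93) in blastocysts. In morulae Zfp446 (0.84) and Zfp775 (0.51) stood higher. Zfp703 stood higher at both stages (0.67 and 0.89), Zfp36l1 did so as well (1.09 and 0.44) and Zfp36l2 was lower (-0.68 and -0.52); the last pair encode RNA-binding proteins with a different kind of zinc finger. None of these passed the test.

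The proteins through which KRAB zinc fingers act were taken as a list of 26 genes, all tested. The list also holds Zfp57, itself a KRAB zinc finger gene, which is counted among the other Zfp genes as well. No member of that list passed limma at either stage. In morulae 15 were lower and 11 higher, with a median log2 difference of -0.03 and none at an unadjusted p under 0.05. In blastocysts 16 were lower and 10 higher, with a median of -0.08, and 4 lower and 2 higher at an unadjusted p under 0.05. Over all genes the medians were -0.01 and 0.00, and 1192 genes were lower and 1206 higher at that p in blastocysts. KD lay below NC without overlap for 3 of the 26 in morulae (11.5%) and for 10 in blastocysts (38.5%), beside 21.2% and 24.9% over all genes.

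Trim28 was 18180 and 17060 in KD against 18610 and 19020 in NC morulae (log2 difference -0.10, adjusted p = 0.792), and the groups overlapped in blastocysts (-0.17). Setdb1 had 0.08 in morulae and -0.07 in blastocysts (adjusted p = 0.891 and 0.744). Ehmt2, another H3K9 methyltransferase, was 0.24 and 0.19, and Suv39h2, of the same function, was -0.39 and -0.31. Atrx, a remodeler that keeps repeats silent, was -0.17 in morulae and -0.45 in blastocysts. Mphosph8, a subunit of the HUSH silencing complex, was 0.32 and 0.50. Zfp57, the KRAB zinc finger protein that guards imprinted regions, was 966 and 1085 in KD against 1577 and 1782 in NC blastocysts (-0.71, adjusted p = 0.0917) and overlapped in morulae (0.17). Uhrf1, which recruits the maintenance DNA methyltransferase, was 0.20 in morulae and -0.56 in blastocysts (adjusted p = 0.682 and 0.101).

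The genes whose pattern over the 8 libraries was most like the mean of the 7 members, by Pearson correlation after centring each table, among 12875 genes, were Rnf130 (0.99), Aes (0.99), Sem1 (0.99), Zfp980 (0.99) and Ubap2l (0.98). Rnf130 encodes a ubiquitin ligase, Aes a Groucho-family corepressor, Sem1 a small proteasome subunit and Ubap2l a stress granule protein. Zfp980 is the one among them from the same stretch of chromosome 4. Rnf130 was 1035 and 1091 in KD against 1841 and 1860 in NC blastocysts (log2 difference -0.80, adjusted p = 0.0593). Aes fell in blastocysts, to 364 and 303 in KD against 1015 and 1122 in NC (-1.68, adjusted p = 0.0405), and was -1.52 in morulae (adjusted p = 0.303), where it passed in the fit of all 8 libraries (0.0225). The blastocyst call of Aes was lost whichever library was left out (limma adjusted p 0.121 to 0.199) and without the mean-variance trend (0.156). Likeness over 8 libraries in 4 groups mostly ranks genes by a clean step at both stages.

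Some summed marker levels did not overlap between the groups, and none was tested as a sum. Summed trophectoderm markers, 7 of 7 listed, were 26561 to 29129 in KD against 29664 to 34715 in NC morulae, and 100302 to 114103 in KD against 89775 to 90341 in NC blastocysts, with 5 of 7 genes lower in KD morulae and 5 of 7 higher in KD blastocysts. The 8 inner cell mass markers overlapped at both stages. The 6 oviduct and uterus markers were Ovgp1, Pax8, Muc1, Wnt7a, Krt7 and Foxj1, with Foxj1 at 0 or not listed. Summed over the 5 listed, they were 190 to 204 in KD against 113 to 129 in NC morulae. In blastocysts they were 786 to 796 in KD against 538 to 584 in NC. Which cells this RNA came from was not tested. Of the 3 oviduct and uterus markers tested, 2 were higher and 1 lower in KD morulae, and all 3 were higher in KD blastocysts. Summed cumulus and granulosa markers, 5 of 10 listed in morulae, were 265 to 272 in KD against 86.3 to 186 in NC morulae and overlapped in blastocysts, with Fshr, Cyp19a1, Has2 and Ptx3 at 0 or not listed. Blood markers overlapped at both stages. The part of these differences in the levels of the zinc finger genes was not tested.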

How the data were processed

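Polyadenylated RNA of 8 pools of mouse embryos was measured. The deposited values are a normalized abundance signal per gene, scaled within the table of a stage. The submitters' processing notes name Salmon 0.14.1, DESeq2 and mm10 without saying what each was used for. Among genes listed above 0 in a single library, 95.0% to 100% of values were whole multiples of a step (tolerance 0.01), from which depth was estimated. Low values shared by several libraries were whole in only 11.4% to 30.3%, so whole reads were not recovered, no count test was run, and errors are the spread between libraries.

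Of the Ensembl IDs, 98.9% in each table matched GENCODE vM21 (GRCm38, the assembly of mm10). The test was limma 3.58.1 (R 4.3.3, mean-variance trend) on log2(value + 1), a scale that understates differences of low genes. It took KD minus NC within a stage over genes with a mean of at least 10 in its 4 libraries, 13404 in morulae and 13651 in blastocysts. P-values were adjusted by Benjamini-Hochberg over all of these, with a threshold of 0.05, and the fit was tested on simulated data. The difference between stages was fitted on all 8 libraries. Exact permutation over 2 against 2 libraries cannot go below the threshold and was not used. The labels do not state that replicate pools were independent litters. A p-value here thus covers the spread of these pools alone, and that spread may be technical.

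Promoters are RefSeq's, and the most upstream start within 500 bases of an annotated one was used. Pairs were aligned globally with Biopython 1.88. The members and all lists were chosen with earlier results of these data known. Named genes followed a rule: the members, Smarca5, Trim28 and Setdb1, other symbol-named genes of the interval, the 3 nearest tested protein-coding genes on each side, up to 4 per stage of the repression list and of Zfp genes in each direction by p, and the 5 most alike in pattern, with clone names such as Gm13212 and pseudogenes left out. Alternatives were another pseudocount (10), no filter on low values, quantile normalization, no trend, all 8 libraries together, a replicate block and leaving out each library.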

Additional observations from a re-analysis of the deposited data

Results flagged for a closer look

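Uhrf1 was flagged because its KD libraries lay above NC in morulae and below NC in blastocysts. They were 3329 and 3100 in KD against 3088 and 2531 in NC morulae, and 4819 and 3976 in KD against 6563 and 6319 in NC blastocysts. The log2 difference in blastocysts was lower than that in morulae by 0.76 (a change of -0.757), and limma's interaction term did not pass (adjusted p = 0.834). Uhrf1 was not alone in this. Zfp57 of the same list, whose groups overlapped in morulae, changed by -0.884 (limma interaction adjusted p = 0.905).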

How the results depend on the processing

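The log2 differences of the 7 genes were below 0 in all 98 values recomputed under the alternatives they entered (pseudocount 10, quantile normalization, replicate block and each library left out). With groups that do not overlap, leaving out a library cannot turn a direction, and with 2 libraries a group it cannot move a value by more than their SD, so neither is a sign of stability. Their median was -0.994 to -0.574 in morulae with 1 library left out. The median of the 7 other zinc finger genes of the interval was -0.843 to -0.199 in morulae and -1.28 to -0.724 in blastocysts with 1 library left out. The median of the repression list in morulae crossed 0 with 1 library left out (-0.0999 to 0.0717).

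Counts of genes called depended on the fit. In morulae limma called 1 gene, 18 with all 8 libraries in one fit and 0 without the trend (1261 at an unadjusted p under 0.05). In blastocysts it called 12, 27 without the filter, 0 without the trend (2020 at an unadjusted p under 0.05), and 1 to 3 with 1 library left out. With the replicate block the counts were 892 of 13404 in morulae (474 lower, 418 higher) and 1208 of 13651 in blastocysts (575 lower, 633 higher). Of the 7 other zinc finger genes of the interval, that block called 1 lower in morulae and 4 lower in blastocysts. Of the other Zfp genes, it called 18 lower and 5 higher of 330 in morulae, and 16 lower and 5 higher of 341 in blastocysts. Of the 26 genes of the repression list, it called none in morulae, and 3 lower and 1 higher in blastocysts. Aes was called in morulae with the block (adjusted p = 0.000239). Deviations of libraries with the same number correlated at 0.30 in morulae and 0.15 in blastocysts, and the labels do not say that the number pairs libraries. Arms of 1 library were assumed to vary like the other arm. Causes of these changes were not tested. Depth per gene sets no interval here, because whole reads were not recovered.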
